A study of Mus musculus with 9 samples.

Results

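The genes described here encode the proteins of the cytoplasmic ribosome, profiled here by RNA sequencing of CD8+ T cells from mouse tumours. They were chosen by symbol alone, as every row of the expression table whose name follows the Rpl and Rps pattern for numbered large and small subunit proteins, together with the stalk genes (Rplp0, Rplp1 and Rplp2) and Rpsa. This gave 84 of the 23366 genes in the table, 51 of the large subunit and 33 of the small subunit. No expression value entered the choice. Rows for ribosomal proteins that carry other names, such as Fau and Gnb2l1 (the former symbol of Rack1), and for the paralog Rpl36al fell outside the pattern and are given separately.

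A cytoplasmic ribosome has a small subunit, which reads the codons of a messenger RNA, and a large subunit, which joins the amino acids. Each protein is generally present once per subunit, apart from the stalk proteins Rplp1 and Rplp2, and production of the proteins is coordinated. Their messenger RNAs begin with a tract of pyrimidines, the 5′ terminal oligopyrimidine (TOP) motif, through which mTORC1 controls their translation. T cells that have met antigen raise ribosome production as they grow and divide, with MYC and mTORC1 as known regulators.

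The libraries came from tumours of B16F10, a transplantable melanoma line, grown in mice of the C57BL/6 strain. There were 5 WT libraries, labelled wild type, and 4 IL27ra KO libraries, whose genotype label names a knockout of Il27ra, the chain of the interleukin 27 receptor that binds the cytokine. All 9 share the strain and the tumour, and each was made by an adaptation of SMART-Seq 2 from 5 uL of lysate of a preparation averaging about 2000 lysed cells. The labels give no age, no tumour stage, no disrupted exon and nothing on whether each library is a different animal, so the p-values speak of the spread among these libraries, some of which may be technical.

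Values are TMM-normalized FPKM, fragments per kilobase of transcript at a common library size, scaled by a trimmed mean of gene ratios. Levels are therefore per length, but comparison between genes is approximate. Relative levels differed with gene length in some libraries, and rows of near-identical sequence held much of the FPKM of some genes, as given below. Libraries had 13111 to 14358 genes above 0. In 4 of the 5 WT libraries Il27ra stood at 14.4 to 25.7 FPKM and in the 4 IL27ra KO libraries at 4.09 to 7.80 FPKM, but the library labelled WT replicate 2 stood at 5.14 FPKM, within the IL27ra KO range. That library also stands apart in the ribosomal protein genes, and results are therefore given with and without it. The summed FPKM of 10 CD8 T cell genes was 954 to 1523 in WT and 428 to 1148 in IL27ra KO. All 10 had a log2 difference below 0 (IL27ra KO minus WT), with a median of -0.76. Of the 10, 2 passed the adjusted p threshold of 0.05 as lower in IL27ra KO, Cd3e and Cd8a. The sum of 14 macrophage and monocyte genes was 19.8 to 195 in WT and 338 to 1068 in IL27ra KO, with all 14 higher, and that of 7 melanoma genes was 354 to 1162 and 541 to 1274, with none of the 7 passing. Of 6 dendritic cell genes, summing to 16.02 to 315 in WT and 293 to 1351 in IL27ra KO, 5 were tested and 4 were higher. Sums of B cell, NK cell, CD4 T cell and neutrophil genes reached at most 5.81 FPKM. The B cell sum was 0.37 to 1.74 FPKM in WT and 0.97 to 3.58 in IL27ra KO. Of the 4 B cell genes 1 was tested, with a log2 difference of 0.78 that did not pass (limma, adjusted p = 0.268). Ms4a1, a defining B cell marker, was at 0 in all 9. In bulk libraries fewer cells of a type and less RNA per cell cannot be told apart, and the part of these other cells in the results below was not tested.

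A short tract of pyrimidines near the transcription start was common among these genes. RefSeq windows (build GRCm38.p6), from 250 bases before to 50 after a start, matched 63 of the 84 genes. Runs of at least 10 pyrimidines, with each letter present more than once, were sought on the sense strand, 20 bases before to 50 after an annotated start. Such a run occurred in 41 of the 63 (65.1%), against 3552 of 27025 genes with a window (13.1%) and 984 of 7749 other tested genes (12.7%). The letters CCGGAAG, a core of binding sites for ETS factors, occurred on either strand of the 300 bases in 26 of the 63 (41.3%), against 9.93% of the 27025 genes and 22.1% of the other tested genes. Its reverse complement opens with pyrimidines, so matches of the motifs can overlap. A match is a description of these letters and no site of binding. To show what the shared tract looks like, windows of 30 bases are given for 4 large subunit genes and 1 small subunit gene (Rps18), with the pyrimidine run in capitals. The window of Rps18 begins at base -7 and the other 4 at base 21 counted from the annotated start, so a run in them need not be the TOP motif itself.
Rpl41, chr10:128549119-128549148, minus strand: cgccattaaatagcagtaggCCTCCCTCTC
Rpl19, chr11:98026944-98026973, plus strand: gcggcccacaagCTCTTTCCTTTCgctgct
Rps18, chr17:33955643-33955672, minus strand: ttccgCTCTCTCTTCCacaggaggcctaca
Rpl39, chrX:37085173-37085202, minus strand: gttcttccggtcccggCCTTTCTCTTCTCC
Rpl4, chr9:64173407-64173436, plus strand: gcgtggCCTTCTCCTCTCCCCgtcatggtg

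Ribosomal protein transcripts were abundant in every library and none passed the test between IL27ra KO and WT. Of the 84 genes, 80 averaged 1 FPKM or more across the 9 libraries and were tested, 48 of the large and 32 of the small subunit. A total of 73 had a mean of at least 100 FPKM and 7 lay between 5 and 100 FPKM. Together they filled 16.1% to 28.4% of the FPKM of a library once Rn45s, the precursor of ribosomal RNA, was left out. The 4 genes not tested are relatives of standard subunits. Rpl10l, the retrogene of Rpl10, was at 0 in all 9 libraries, and Rpl3l, the muscle form of Rpl3, reached 0.21 FPKM in IL27ra KO replicate 1 and was 0 elsewhere. Rpl39l, a relative of Rpl39 known from testis, had 1.08, 2.19, 0, 0.53 and 0 FPKM in WT and 0.96, 0.36, 0 and 0 in IL27ra KO. Rps4y2, a relative of Rps4x, had 0, 0.47, 0, 0.91 and 0.52 FPKM in WT and 1.38, 0.93, 0.84 and 1.53 in IL27ra KO.

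In the fit across all 10374 tested genes (limma on log2(FPKM + 1), threshold of 0.05 on the Benjamini-Hochberg adjusted p), 0 of the 80 ribosomal protein genes were called, 0 higher and 0 lower in IL27ra KO. The background was 440 genes called (4.24%), of which 325 were higher (3.13%) and 115 lower (1.11%). At an unadjusted p under 0.05 the fit had 1 of the 80, Rps27, against 15.1% of all genes. The groups overlapped for all 80, whereas they did not overlap for 698 of all tested genes (6.73%). The median log2 difference, IL27ra KO minus WT, was -0.19 for the 80 genes against 0.02 for all tested genes, and 72 of the 80 lay below 0. Leaving out Rps27, the differences ran from -0.60 for Rpl26 to 0.32 for Rps27l, with standard errors of 0.19 to 0.49 and no adjusted p below 0.570.

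**Figure D1:**
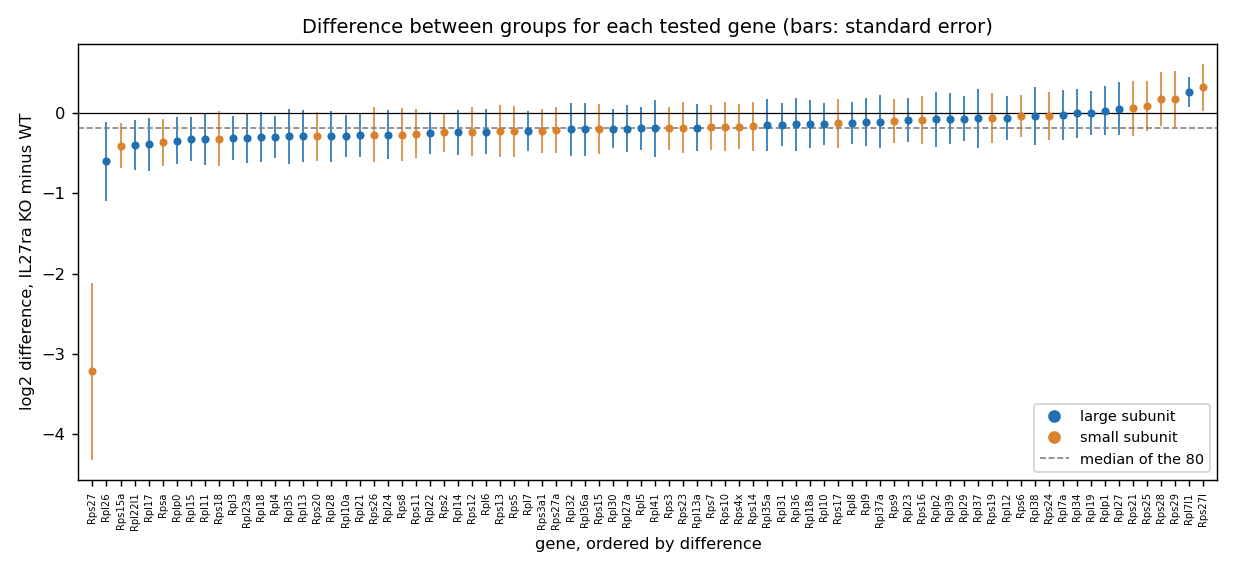
Log2 difference between IL27ra KO (n = 4) and WT (n = 5) libraries for each of the 80 tested ribosomal protein genes, ordered by size, with bars of 1 standard error and colours for the subunit. The dashed line is the median of the 80 at -0.19, 79 genes lie between -0.60 and 0.32, and Rps27 stands alone at -3.22.

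The sign of the common difference rested on 1 library. The summed FPKM of the ribosomal protein genes was 43666, 85819, 32416, 31998 and 39338 in WT replicates 1 to 5 and 31658, 41807, 35137 and 44422 in IL27ra KO replicates 1 to 4. Apart from the library labelled WT replicate 2, both groups covered the same range. The group means were 46647 ± 22438 in WT (SD, n = 5) and 38256 ± 5884 in IL27ra KO (SD, n = 4), and the WT mean without that library was 36855 ± 5653. It was the highest of the 9 libraries for 78 of the 80 genes, all but Rpl30 and Rpl7l1, against 24.7% of all tested genes. Its median excess over the next library was 1.85-fold, and over the mean of the other 4 WT libraries 2.33-fold. With that library left out, the median log2 difference was 0.05, beside 0.02 for all genes, and 26 of the 80 genes lay below 0.

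The excess in the library labelled WT replicate 2 differed in size across the translation machinery. Its median log2 excess over the mean of the other WT libraries was 1.24 for the 80 cytoplasmic ribosomal protein genes, 0.87 for 76 genes of the mitochondrial ribosome and 0.81 for 15 TOP transcripts that encode no ribosomal protein. It was 0.50 for 40 ribosome assembly genes and 0.38 for 48 genes with initiation factor symbols. These 48 include Eif2c1, Eif2c2 and Eif2c3, which encode Argonaute proteins. The median excess was 0.37 for 11 elongation and termination factors and 0.21 for 15 RNA polymerase I genes. It was 0.06 for 18 genes of mTORC1 and MYC control and -0.25 for 11 ribosome stress and p53 target genes. For all tested genes it was -0.06. Markers of cells differed in the same library: the median excess was 1.58 for 5 dendritic cell genes, 0.74 for 14 macrophage genes, 0.56 for 10 CD8 T cell genes and -1.40 for 7 melanoma genes. Their part in the excess was not tested. Ribosomal proteins with other names were also highest there. Fau, which encodes the small subunit protein eS30 fused to a ubiquitin-like protein, had 630, 1299, 512, 470 and 585 FPKM in WT and 480, 562, 524 and 737 in IL27ra KO. Gnb2l1, a scaffold protein of the small subunit, had 642, 931, 518, 524 and 589 FPKM in WT and 519, 569, 522 and 633 in IL27ra KO.

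**Figure D2:**
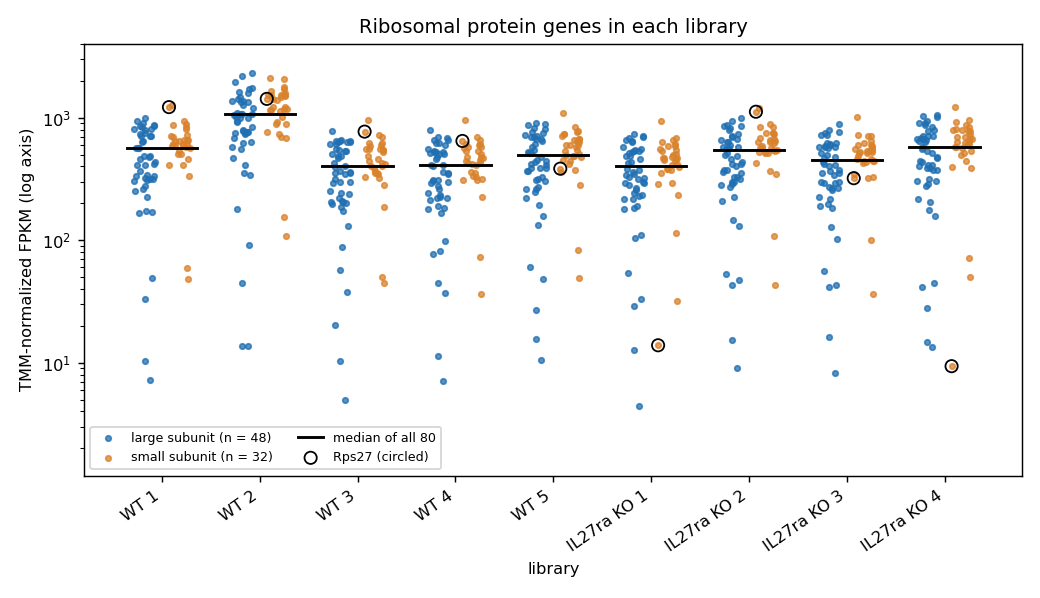
TMM-normalized FPKM (log axis) of the 80 tested ribosomal protein genes in each of the 9 libraries, large subunit genes to the left and small subunit genes to the right, with the median of the 80 as a bar and Rps27 circled. The bar is at 1071 FPKM in WT replicate 2 and between 402 and 581 FPKM in the other 8, and Rps27 drops to 13.9 and 9.37 FPKM in IL27ra KO replicates 1 and 4.

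Scaling moved the common difference as well. Rescaling each library to the same total put the median of the 80 at 0.14, with that of all genes at 0.29. Rescaling to the CD8 T cell genes put them at 0.62 and 0.71. The other planned scalings kept the median of the 80 below 0. It was -0.12 with the same total without Rn45s, -0.27 with the same median and -0.07 with quantile normalization. The medians of all genes were then 0.07, -0.04 and -0.04. Relative to all genes, the ribosomal protein genes were thus below the median under each of these scalings. Under the scaling to CD8 T cell genes 2077 of all 10374 tested genes were called, 2024 higher and 53 lower in IL27ra KO. Of the 80 ribosomal protein genes 7 were called, all higher: Rpl19, Rpl7l1, Rplp1, Rps25, Rps27l, Rps28 and Rps29. Their direction was thus that of nearly all genes called under this scaling.

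The levels of the ribosomal protein genes varied together from library to library. The medians of the 80 genes varied over the 9 libraries with an SD of 0.44 log2 units, and over the 8 without WT replicate 2 with an SD of 0.22. Once the median of the 80 was subtracted within each library, the median SD of a gene was 0.13 log2 units, and 0.11 without that library. With all 9 libraries, 74 of the 80 had an SD under 0.25 and 3 exceeded 0.5: Rps27 at 2.61, Rpl26 at 0.74 and Rpl30 at 0.57. The last 3 are taken up below with the genes that share their sequence.

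The most abundant members came from both subunits. Rps4x, an X-linked small subunit protein, had 1269, 2123, 966, 960 and 1091 FPKM in WT and 937, 1195, 1013 and 1229 in IL27ra KO. Rpl32, a large subunit protein, had 988, 2171, 651, 702 and 903 FPKM in WT and 732, 942, 792 and 943 in IL27ra KO. Rpl41, which encodes a very short basic protein of the large subunit, had 870, 2337, 630, 659 and 892 FPKM in WT and 714, 853, 759 and 1020 in IL27ra KO. For all 3 the groups overlapped and the highest value was that of the library labelled WT replicate 2. Their log2 differences were -0.17, -0.20 and -0.19 (limma, adjusted p = 0.854, 0.849 and 0.871).

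The stalk of the large subunit, the base and arms that recruit elongation factors, showed the same spread. Rplp0, its base, had 938, 1947, 775, 788 and 868 FPKM in WT and 662, 864, 722 and 910 in IL27ra KO, a log2 difference of -0.34 (SE 0.30; limma, adjusted p = 0.660). Rplp1 had 850, 1754, 651, 684 and 804 FPKM in WT and 700, 999, 883 and 1057 in IL27ra KO, a difference of 0.03 (SE 0.31; limma, adjusted p = 0.983). Rplp2, its partner in the arms, averaged 526 ± 317 FPKM in WT (SD, n = 5) and 454 ± 101 in IL27ra KO (SD, n = 4). The groups overlapped for each of the 3. Rpsa, the small subunit protein also known as a laminin receptor, had 650, 1423, 592, 576 and 602 FPKM in WT and 469, 564, 515 and 700 in IL27ra KO (log2 difference -0.37; limma, adjusted p = 0.633).

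The large and small subunits were set side by side within each library, so that a shift common to both drops out. The median level of a tested gene was 474 FPKM for the large and 614 FPKM for the small subunit. The median log2 difference between the groups was -0.19 for both subunits, with 45 of 48 large and 27 of 32 small subunit genes below 0. The mean log2 level of the large subunit minus that of the small subunit was -0.60, -0.62, -0.61, -0.60 and -0.55 in WT and -0.46, -0.66, -0.60 and -0.43 in IL27ra KO. The means were -0.60 ± 0.03 (SD, n = 5) and -0.54 ± 0.11 (SD, n = 4), and the 2 highest values belong to IL27ra KO replicates 4 and 1. These are the libraries in which Rps27 was at its lowest. Without Rps27, left out after its values were seen, the WT libraries stood at -0.57, -0.61, -0.58, -0.57 and -0.56 and the IL27ra KO libraries at -0.61, -0.63, -0.61 and -0.61. The group difference of 0.055 thereby became -0.041, a shift of the other sign. It is no test, since it is a score over chosen genes.

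Rps27, a zinc-finger protein of the small subunit, was the single member that stood apart. It had 1221, 1426, 770, 646 and 384 FPKM in WT and 13.9, 1119, 321 and 9.37 in IL27ra KO. IL27ra KO replicates 1 and 4 were far below every other library, replicate 2 lay among the highest, and the groups overlapped. The log2 difference was -3.22 (SE 1.10), with a limma adjusted p = 0.149 that missed the threshold and an exact two-sided permutation p = 0.0635, where 0.0159 is the smallest that 5 and 4 libraries allow. Without IL27ra KO replicate 2 it was -4.45 and passed (limma, adjusted p = 0.0181), whereas it was -2.37 without IL27ra KO replicate 1 (adjusted p = 0.443) and -2.20 without replicate 4 (adjusted p = 0.284). With weights for library quality it was -2.05 (limma, adjusted p = 0.328).

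The row Gm9846, now named Rps27rt, a retrogene of Rps27, varied as widely. It had 10.3, 861, 4.25, 121 and 520 FPKM in WT and 815, 53.8, 636 and 1404 in IL27ra KO, high in the libraries where Rps27 was lowest but also high in WT replicate 2, where Rps27 was at its highest, with a log2 difference of 2.49 (SE 1.38; limma, adjusted p = 0.442). The coding sequences of Rps27 on chromosome 3 and Rps27rt on chromosome 9 (GENCODE release M21, build GRCm38) are identical over all 255 bases, shown once for both because reads inside it carry no letter that tells them apart.
Rps27 and Rps27rt, coding sequence: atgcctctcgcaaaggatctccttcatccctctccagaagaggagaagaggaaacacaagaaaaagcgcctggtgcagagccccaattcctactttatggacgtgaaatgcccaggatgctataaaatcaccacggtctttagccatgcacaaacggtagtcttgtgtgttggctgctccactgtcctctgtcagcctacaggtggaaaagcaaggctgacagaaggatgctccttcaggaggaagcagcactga
The genes differ upstream. In the RefSeq windows around their annotated starts the longest shared run was 38 bases, beginning at base 2 of Rps27 and base 1 of Rps27rt, and only 21 of the 100 bases before that run were equal. The edge of the shared stretch is shown with its first 16 shared bases in capitals.
Rps27, chr3:90213632-90213661, minus strand: ttccgctttcgctcCTTTCCGGCGGTGACG
Rps27rt, chr9:114982724-114982753, minus strand: gaacttatcccttgCTTTCCGGCGGTGACG

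Added together, the pair varied little relative to the other ribosomal protein genes. The sum was 1231, 2286, 775, 767 and 904 FPKM in WT and 829, 1173, 957 and 1413 in IL27ra KO, with IL27ra KO replicates 1 and 4 inside the range of the others. Divided by the median of the 80 genes in the same library, the sum was 1.84 to 2.43, a 1.33-fold range, whereas Rps27 alone ranged 133-fold on that measure. The share of the sum assigned to Rps27 itself was 99.2%, 62.3%, 99.5%, 84.2% and 42.5% in WT and 1.67%, 95.4%, 33.5% and 0.66% in IL27ra KO. In a fit with near-identical rows added to their member, an analysis added after the values were seen, the pair had a log2 difference of -0.02 (limma, adjusted p = 0.989). Gm9846 was looked up after the values of Rps27 were seen. How the upstream software divided reads between the pair was not tested.

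**Figure D3:**
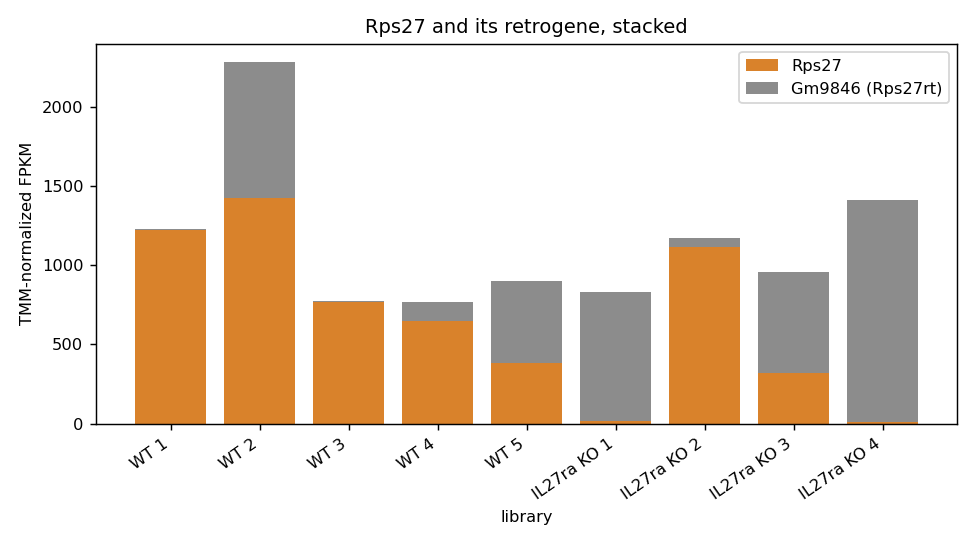
Stacked TMM-normalized FPKM of Rps27 and of Gm9846 (Rps27rt), whose coding sequences are identical, in each of the 9 libraries. The division between them swings from 99.5% Rps27 in WT replicate 3 to 0.66% in IL27ra KO replicate 4, while the stack height stays between 767 and 2286 FPKM.

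Rps27 was 1 of 13 members with a near-identical row in the table. The coding sequences of 83 members were compared with the transcripts of all rows, and 14 rows outside the membership matched a member over at least 90% of its length at 95% identity or more, of which 12 had a mean of at least 1 FPKM. In 4 members these rows held most of the combined FPKM. Rpl34, a large subunit protein, averaged 8.75 FPKM over the 9 libraries against 579 with Rpl34-ps1, which differs from it at 2 bases, and its own share was 1.04% to 2.09%. Rpl30 averaged 38.7 FPKM against 585 with Gm12191, 1 base different, with an own share of 4.06% to 13.2%. Rpl26 averaged 78.7 FPKM against 591 with Gm15772, 2 bases different, with an own share of 4.57% to 27.04%. Rps15a of the small subunit averaged 49.9 FPKM against 352 with Rps15a-ps4 and Rps15a-ps6, with an own share of 13.1% to 16.4%. Of the 7 tested members below 100 FPKM, these were 4.

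Rpl37, a zinc-binding protein of the large subunit, was split more evenly. Its own share against Gm13826, now Rpl37rt, 1 base different, was 54.5% to 80.4%. In the other 7 members with such a row the member kept over 95% of the sum in each library. The fit with rows added together gave log2 differences of -0.16 for Rpl26, -0.14 for Rpl30, -0.22 for Rpl34, -0.12 for Rpl37 and -0.52 for Rps15a. In that fit 0 ribosomal protein genes were called (limma, lowest adjusted p = 0.504, for Rps15a), and 443 genes in all. The large minus small subunit score became -0.43, -0.44, -0.39, -0.43 and -0.39 in WT and -0.44, -0.47, -0.46 and -0.45 in IL27ra KO, a group difference of -0.037.

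**Figure D4:**
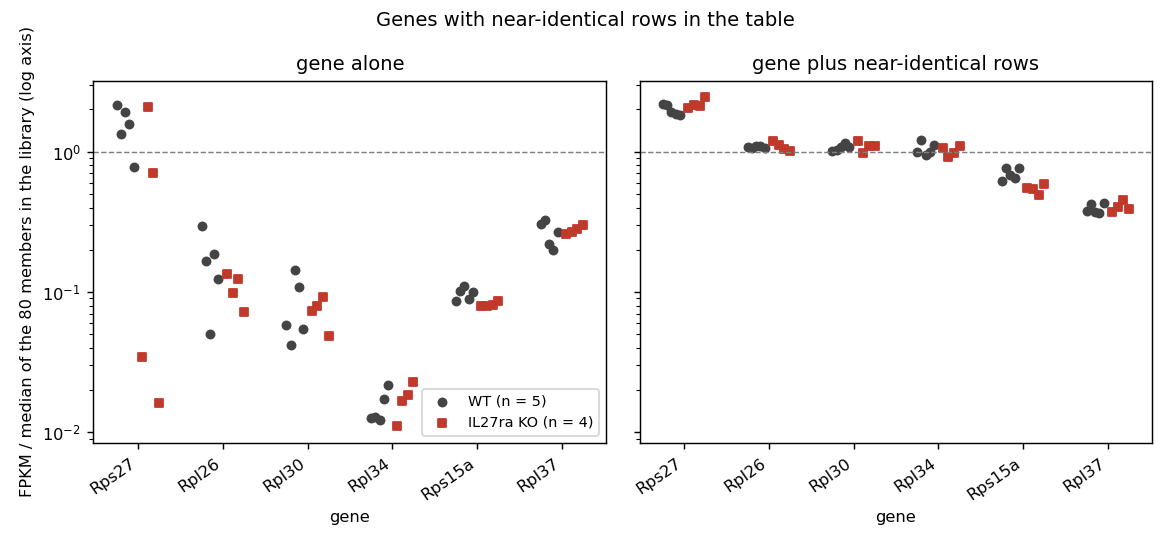
FPKM of 6 ribosomal protein genes divided by the median of the 80 in the same library (log axis), for the gene alone on the left and with its near-identical rows added on the right, for 5 WT (black circles) and 4 IL27ra KO (red squares) libraries. Alone, Rpl34, Rpl30 and Rpl26 lie far below 1 and Rps27 spreads over 133-fold. With the added rows Rps27 spans 1.33-fold and Rpl26, Rpl30 and Rpl34 lie near 1.

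Apart from Rps27, the members with the lowest differences varied as much within a group as between the groups. Rpl26 itself had 166, 178, 20.2, 76.6 and 61.0 FPKM in WT and 54.4, 53.4, 56.2 and 41.5 in IL27ra KO, so the IL27ra KO values fell inside the wide WT range (log2 difference -0.60, SE 0.49; limma, adjusted p = 0.640). Rps15a had 48.6, 108, 44.5, 36.5 and 49.4 FPKM in WT and 32.1, 42.7, 36.7 and 50.03 in IL27ra KO (-0.41; limma, adjusted p = 0.570). Rpl17, a protein at the exit of the peptide tunnel, had 705, 1596, 530, 503 and 646 FPKM in WT and 465, 577, 477 and 710 in IL27ra KO (-0.39; limma, adjusted p = 0.650). Each of these groups overlapped.

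At the other end were small proteins and paralogs. Rps29, a zinc-binding small subunit protein, had 642, 1388, 364, 423 and 595 FPKM in WT and 587, 750, 620 and 801 in IL27ra KO (log2 difference 0.17; limma, adjusted p = 0.880). Rps28 had 594, 1143, 346, 326 and 487 FPKM in WT and 479, 661, 530 and 695 in IL27ra KO (0.17; limma, adjusted p = 0.879). Rps25, also of the small subunit, had 459, 891, 285, 318 and 504 FPKM in WT and 422, 531, 445 and 533 in IL27ra KO (0.09; limma, adjusted p = 0.934), and Rps29, Rps28 and Rps25 each overlapped between the groups. Relative to the median of the 80 in the same library, Rps28 stood at 0.07, 0.09, -0.22, -0.34 and -0.02 log2 units in WT and 0.25, 0.29, 0.23 and 0.26 in IL27ra KO, and these relative values did not overlap. The same held for 7 of the 80, against 3.55% of all tested genes on this relative scale: Rpl19, Rplp1, Rps16, Rps28 and Rps29 were higher in IL27ra KO and Rplp0 and Rpl23a lower. With the mean of the 80 subtracted instead, it held for 6, against 4.31% of all tested genes. These counts were made after the values were seen. The level subtracted is that of the 80 genes themselves, which takes out variation they share but not that of other genes. The counts and the shares of all tested genes are therefore no like comparison, and no excess is read from them. After rescaling to the median of the ribosomal protein genes, a scaling added after the values were seen, the differences were 0.34 (SE 0.12) for both Rps29 and Rps28 and did not pass (limma, adjusted p = 0.243 and 0.258). On the deposited scale both differences turned to -0.24 when WT replicates 3 and 4 were left out together, where the median of the 80 was -0.48. Relative to the median of the 80, both genes were still higher in every IL27ra KO library than in WT replicates 1, 2 and 5. In the fit rescaled to the median of the ribosomal protein genes 0 of the 80 were called. The lowest adjusted p there was 0.155 (limma), for Rps27.

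WT replicates 3 and 4 also differed from the others by gene length. Among the 80 members, the 20 with the shortest coding sequences (at most 369 bases) minus the 20 with the longest (at least 636 bases) had a median relative level of -0.04, 0.35, -0.27, -0.18 and -0.03 log2 units in WT and -0.03, 0.12, 0.07 and 0.13 in IL27ra KO. Short genes were thus relatively low in WT replicates 3 and 4 and high in the library labelled WT replicate 2. Rps29 (171 bases) and Rps28 (210 bases) are among the short ones, and their relative levels were lowest in WT replicates 3 and 4. Rn45s took 53.8% and 50.8% of the FPKM in WT replicates 3 and 4 and 23.9% to 30.01% in the other 7. Across the 80 genes, which are not independent replicates and share each library, the Spearman correlation of length with relative level was 0.54 and 0.47 in WT replicates 3 and 4 and -0.41 in WT replicate 2. The part of length in the differences of single genes was not tested.

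**Figure D5:**
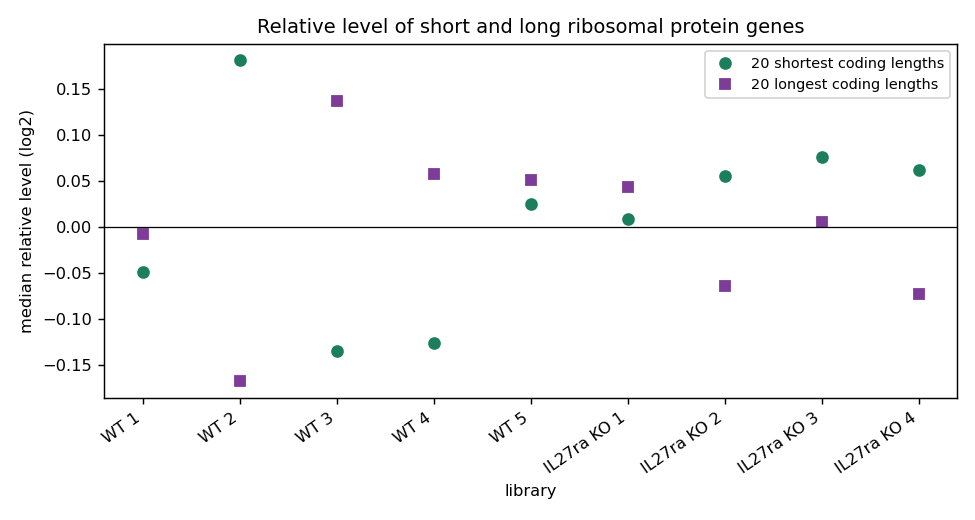
Median relative level (log2, after subtracting the median of the 80 in each library and then the mean of each gene over the 9 libraries) of the 20 ribosomal protein genes with the shortest and the 20 with the longest coding sequences, in each library. Short genes lie below long ones in WT replicates 3 and 4, by 0.27 and 0.18, and above them in WT replicate 2, by 0.35.

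Paralogs stood above or below their standard forms, depending on the pair. Rps27l, a relative of Rps27 known as a p53 target, had 59.7, 154, 50.4, 73.5 and 83.6 FPKM in WT and 114, 108, 101 and 72.0 in IL27ra KO. The IL27ra KO values of replicates 1 to 3 were above all WT values but that of replicate 2, and the log2 difference of 0.32 did not pass (SE 0.29; limma, adjusted p = 0.691). Rpl7l1, which is known from assembly of the large subunit, had 10.4, 13.8, 10.3, 11.3 and 15.5 FPKM in WT and 12.7, 15.5, 16.1 and 14.7 in IL27ra KO (0.26; limma, adjusted p = 0.579), where Rpl7 averaged 729 ± 198 and 611 ± 80.8 FPKM. Rpl22l1 is the relative of Rpl22, a protein needed by developing T cells, and here it was the more abundant of the pair. It had 170, 341, 130, 99.0 and 156 FPKM in WT and 111, 131, 102 and 158 in IL27ra KO, against 49.4, 91.1, 37.8, 37.4 and 48.5 and 33.4, 47.2, 43.2 and 45.2 for Rpl22. Their log2 differences were -0.40 and -0.25 (limma, adjusted p = 0.620 and 0.733). Rpl36al averaged 167 ± 84.4 FPKM in WT and 164 ± 23.5 in IL27ra KO, where Rpl36a averaged 307 ± 179 and 244 ± 52.7. Rpl3, Rpl10 and Rpl39, whose relatives were at or near 0, averaged 817 ± 330, 673 ± 238 and 825 ± 396 FPKM in WT and 623 ± 50.7, 589 ± 55.5 and 729 ± 119 in IL27ra KO.

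Members with known roles outside the ribosome did not pass either. Rpl5 and Rpl11, which with the 5S RNA hold back Mdm2 when ribosome assembly fails, averaged 624 ± 216 and 526 ± 304 FPKM in WT (SD, n = 5) and 530 ± 85.5 and 387 ± 75.2 in IL27ra KO (SD, n = 4). Rpl13a, known from translational silencing of inflammatory transcripts, averaged 586 ± 250 and 498 ± 128 FPKM. Rps3, also described in NF-kB complexes and DNA repair, averaged 422 ± 158 and 358 ± 66.6 FPKM. Rps6, the substrate of the S6 kinases, had 510, 738, 351, 356 and 491 FPKM in WT and 376, 512, 439 and 517 in IL27ra KO, a log2 difference of -0.04 (SE 0.26; limma, adjusted p = 0.966). Rps19, mutated in Diamond-Blackfan anaemia, had 585, 1226, 402, 426 and 494 FPKM in WT and 455, 588, 529 and 628 in IL27ra KO (-0.06; limma, adjusted p = 0.954).

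Genes that make, regulate or serve the ribosome were looked at in 9 lists with 226 distinct tested genes. Of these 0 were called, against 4.24% of all tested genes, and 7 had an unadjusted p under 0.05, against 15.1%. The lowest adjusted p was 0.110 (limma). The median log2 difference was -0.09 for 76 mitochondrial ribosomal protein genes and for the 48 genes with initiation factor symbols. It was -0.07 for 11 elongation and termination factors and for 15 TOP transcripts that encode no ribosomal protein. For 40 genes of ribosome assembly it was -0.05. For 15 genes of the RNA polymerase I machinery it was -0.22, for 18 genes of mTORC1 and MYC control 0.05 and for 11 ribosome stress and p53 target genes 0.26. Myc itself had 33.1, 33.8, 47.8, 35.7 and 17.7 FPKM in WT and 19.6, 21.6, 23.5 and 26.5 in IL27ra KO (log2 difference -0.48; limma, adjusted p = 0.398). It was thus below 4 of the 5 WT libraries in each IL27ra KO library and above WT replicate 5.

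Among those lists the largest differences belonged to a stress gene and to a pair of paralogs. Cdkn1a, the p53 target p21, had 22.7, 24.9, 12.8, 10.3 and 30.3 FPKM in WT and 57.3, 30.3, 55.4 and 26.1 in IL27ra KO (1.05; limma, adjusted p = 0.110). Nop2, an RNA methyltransferase of the nucleolus, averaged 7.25 ± 1.76 FPKM in WT (SD, n = 5) and 11.7 ± 3.37 in IL27ra KO (SD, n = 4; limma, adjusted p = 0.197). Eif3j2, an initiation factor gene, had 6.65, 10.1, 9.95, 12.4 and 16.4 FPKM in WT and 0, 6.70, 0 and 10.8 in IL27ra KO, and was listed at 0 where its paralog Eif3j1 stood at 11.8 and 12.3. The sums of the pair were 13.8 ± 2.78 FPKM in WT and 12.6 ± 2.03 in IL27ra KO. Of the mitochondrial ribosomal proteins, Mrpl45 averaged 10.8 ± 1.61 and 7.36 ± 0.54 FPKM and Mrps27 9.42 ± 2.04 and 6.10 ± 1.89 (limma, adjusted p = 0.164 and 0.207).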

How the data were processed

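RNA from CD8+ T cells of 5 WT and 4 IL27ra KO libraries was measured in 1 deposited table. Its unit, per the labels, is FPKM per gene, which the authors obtained with RSEM and scaled by TMM. The submitters' processing notes name TopHat, RSEM, DESeq and the build mm9, without versions or roles. RSEM shares out reads that fit more than 1 gene, and in SMART-Seq 2 PCR copies cannot be recognised. The table held 0 columns of other samples. The read depth of the libraries was not estimated, so no counting interval is given.

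Deposited FPKM were taken to log2(FPKM + 1). The 10374 genes that averaged 1 FPKM or more were fitted in limma 3.58.1 under R 4.3.3 (lmFit and trended eBayes), IL27ra KO minus WT, and p-values were adjusted over all of them by Benjamini and Hochberg's method. On this scale a fold change of a low gene is understated. For single genes an exact permutation test, two-sided, was added. The fit was tested on simulated data in which 200 of 10374 genes were changed. It recovered 40.5% of those with a log2 change of 1, 96% at 2 and 99% at 3. The shares of false calls were 3.57%, 7.25% and 3.41%. Coding sequences (GENCODE release M21) were compared with blastn 2.17.0. Sequence windows are RefSeq's, of build GRCm38.p6, and not of the build of the expression values.

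Members named with values are those past the threshold, the 5 largest and smallest differences, the 5 most abundant, the 5 largest differences each way relative to the median of the members (which are the same genes), the stalk proteins with Rpsa, paralog pairs and members with other roles. Members with near-identical rows and genes named by a small count were added after their values were seen. One gene of the fixed lists is not reported here. Members, lists and rules were chosen with earlier results of these data known. Alternatives were pseudocounts, filters, scalings, other fits (robust, weighted, with the replicate number as a block) and each library left out.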

Additional observations from a re-analysis of the deposited data

Results flagged for a closer look

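In the WT group the library labelled WT replicate 2 lay far above the other 4 for most ribosomal protein genes. Its summed FPKM of these genes was 85819, and its values were 2123 FPKM for Rps4x, 2171 for Rpl32, 2337 for Rpl41, 1947 for Rplp0, 1754 for Rplp1, 1596 for Rpl17, 1388 for Rps29, 1423 for Rpsa, 1082 for Rpl10 and 1226 for Rps19. They were 1019 FPKM for Rpl13a, 1083 for Rplp2, 1066 for Rpl11, 695 for Rps3, 619 for Rpl36a, 108 for Rps15a and 91.1 for Rpl22. In each case the gap to the next library exceeded Dixon's 95% critical value for its group size. Of all 84 ribosomal protein genes, 56 stood out in this way with that library highest, and 1, Rpl3l, with IL27ra KO replicate 1 highest, over 165 groups of values. Chance alone marks about 1 group in 20, but the genes of 1 library are not independent.

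The large minus small subunit score without Rps27 was lowest in IL27ra KO replicate 2, at -0.63, against -0.61 in the other 3 IL27ra KO libraries.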

How the results depend on the processing

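Across 24 alternatives, 21 of them planned, 0 ribosomal protein genes were called in 22. Scaling to the CD8 T cell genes called 7, all 7 higher, where 2024 of the 2077 genes called in all were higher. Leaving out 1 library called 0 to 1, with 0 higher and 0 to 1 lower (Rps27, lower, without IL27ra KO replicate 2). Of 768 values of 32 named genes, 7 newly passed, 0 lost a call and 105 turned sign without passing either way. Scaling to the CD8 T cell genes put the median difference at 0.62 for all members, 0.62 for the large and 0.62 for the small subunit. It left 1 gene below 0. Scaling to the same total left 7 below 0, but 63 when Rn45s was left out of the total. Over the fits without 1 library the medians ran from -0.29 to 0.05, from -0.31 to 0.05 and from -0.29 to 0.05, and 26 to 77 genes lay below 0. The lowest count and the positive medians were those without WT replicate 2. The large minus small difference was 0.02 to 0.10 over those fits and -0.037 with near-identical rows added.

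Among all genes the count called was 219 at a minimum of 5 FPKM, 2077 with the CD8 T cell scaling, 1114 with the robust fit, 974 with array weights and 227 to 639 without 1 library (240, 266 and 227 without IL27ra KO replicates 1, 2 and 3). The cause of these shifts was not tested.

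Replicate numbers are shared by the groups and were not taken to pair the samples. Same-numbered deviations correlated at 0.00, -0.01, -0.07 and -0.15, and no IL27ra KO library correlated best with its own number. These correlations cannot tell whether same-numbered libraries were handled together. With the number as a block 273 genes and 0 ribosomal protein genes were called.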
